A study of Homo sapiens with 3 samples.

Results

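EVI1 is a zinc finger transcription factor encoded by MECOM, and its abnormal expression marks a group of aggressive myeloid leukaemias in which the gene is rearranged. It binds DNA through separate groups of zinc fingers and recruits corepressors and histone modifiers, so that its known effects on target genes include both repression and activation. EVI1+18 is a variant of the protein, and the series title speaks of aberrant EVI1 splicing. From general knowledge of the field, and not from the labels, it carries a short in-frame insertion that arises through a cryptic splice site in leukaemias with a mutated splicing factor SF3B1. The comparison described here sets the transcriptome of K562 cells given EVI1+18 against that of K562 cells given EVI1-WT, the unaltered form.

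The comparison uses 2 of the 3 libraries of the series, with 1 library per construct. K562 is an established cell line of chronic myelogenous leukaemia in blast crisis, driven by the BCR-ABL1 fusion and able to express embryonic and fetal globins. The cells were infected with pMYs-IG retrovirus produced in GP2-293 packaging cells. The vector was empty, or carried EVI1-WT or EVI1+18, each with an HA tag of 3 copies. Cells positive for the GFP marker of the vector were sorted 3 days after infection and cultured, so each library comes from a sorted pool and not from a clone, and no number of cultures is given. All 3 pools keep the cell's own MECOM gene. The third library, the empty vector, is used here only as a reference level.

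The rule for the comparison took genes with a mean of at least 50 expected counts over the 3 libraries, which left 10406 of the 26334 genes in each table. Libraries summed to between 17794423 and 20772348 expected counts. Levels are given as CPM, counts relative to the library total, after scaling for library composition with TMM factors. Each ratio of EVI1+18 to EVI1-WT is followed by its exact 95% interval (Clopper-Pearson), which covers counting error only. With 1 library a side no spread between cultures could be measured, so there is no test, no p-value and no way to tell the construct from the culture. The cells carried the expected K562 markers in both libraries. All 14 genes of the K562 marker list passed the filter, GATA1 stood at 189 CPM (EVI1-WT) and 204 CPM (EVI1+18), and the summed level of the list was 18757 and 18220 CPM in that order. Of the 15 markers of HEK293-type packaging cells, 6 were at 0 in all libraries, including PAX2 and SIX2. Only KRT8, KRT18 and NEFH passed the filter, at ratios of 1.23, 1.08 and 0.932. Of 14 lymphoid markers, CD5, MS4A1 and PAX5 were at 0 throughout, and of 14 stromal and epithelial markers LUM, PDGFRA, CLDN4 and CDH5 were. Not all members were absent, since 3 lymphoid and 2 stromal and epithelial markers passed the filter. The summed level of the lymphoid list was 20.5 CPM (EVI1-WT) and 23.6 CPM (EVI1+18), and that of the stromal and epithelial list 228 and 274 CPM.

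MECOM itself differed between the libraries. Its level was 43.9 CPM in the empty vector library, 56.9 CPM for EVI1-WT and 97.3 CPM for EVI1+18. The EVI1+18 level thus exceeded the EVI1-WT level 1.71-fold (1.59 to 1.84), a log2 ratio at percentile 98.1 of the 10406 genes. In TPM, which is scaled by transcript length, the levels were 15.2, 19.1 and 32.5. The mean transcript length assigned to MECOM was 5042, 4936 and 4876 bases in the same order. The form of EVI1 and the amount of MECOM transcript therefore cannot be told apart in any of the differences that follow. The tables also do not separate the vector's transcript from the cell's own. Among the PRDM genes, the family to which MECOM belongs, PRDM15 was at 1.14 (0.998 to 1.30), PRDM2 at 0.940 (0.865 to 1.02) and PRDM10 at 0.797 (0.689 to 0.921).

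Most genes differed little between the libraries, and most of the larger differences were in the higher direction. Of the 10406 genes, 77.3% lay within 1.2-fold and 95.6% within 1.5-fold. At least 2-fold higher with EVI1+18 were 99 genes, or 0.951% of those described, and 22 genes, or 0.211%, were at least 2-fold lower. At a threshold of 1.5-fold the counts were 372 higher, or 3.57%, and 88 lower, or 0.846%. The interval bound nearest to 1 was itself at least 2-fold for 45 of the higher genes and 12 of the lower genes. Among the genes past 2-fold, 7 higher and 7 lower share reads with a partner, and some of these are among the 45 and 12. Leaving them out left 92 higher and 15 lower genes past 2-fold. The large ratios sat mostly among genes of low count. Of 786 genes with a mean of 50 to 100 counts, 7.25% were past 2-fold in either direction, against 0.0893% of the 2240 genes with a mean of 2000 or more, where the counting interval typically reached 1.05-fold to either side. Close to the threshold, the hypoxia gene ANKRD37 (129 counts with EVI1+18 and 57 with EVI1-WT) lay just outside at 1.997, and the lowest ratio inside was 2.002.

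**Figure D1:**
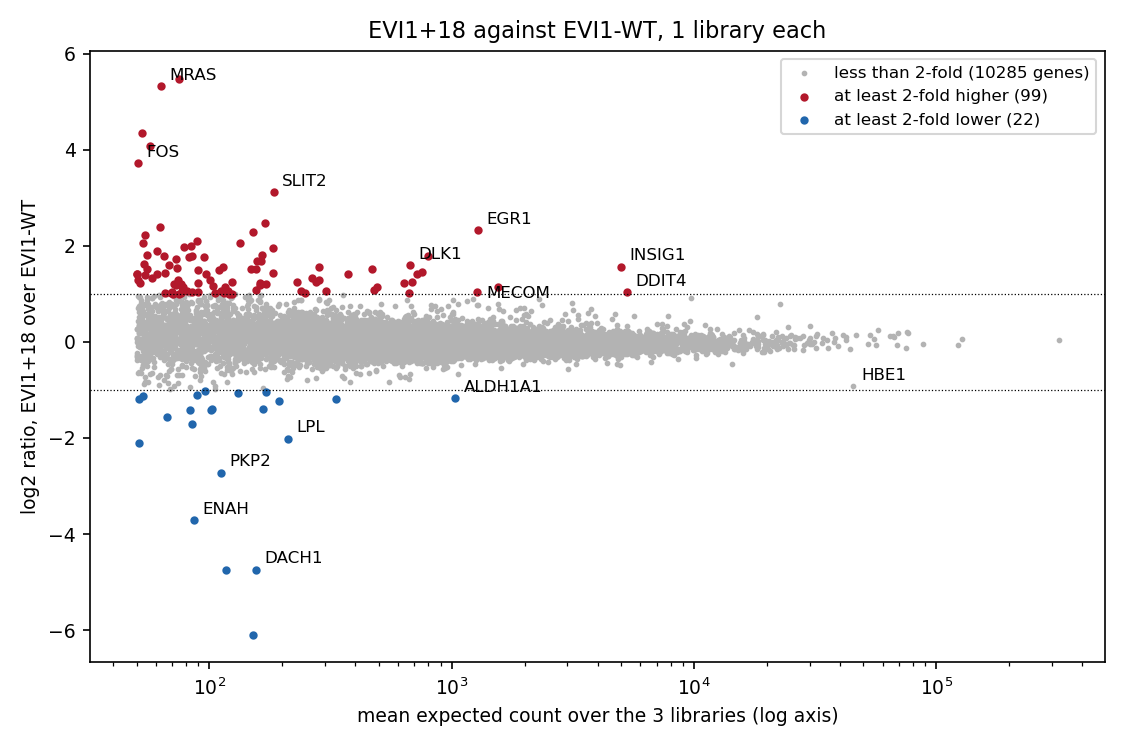
Log2 ratio of EVI1+18 over EVI1-WT for each of the 10406 genes (vertical axis) against its mean expected count over the 3 libraries (horizontal log axis). Coloured points are the 99 genes past 2-fold upwards and the 22 past 2-fold downwards, dotted lines mark 2-fold, and most coloured points lie at low mean counts.

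The ratios moved with transcript GC content across all the genes described. When genes were placed in 10 classes by the GC content of their transcripts, the median log2 ratio of EVI1+18 over EVI1-WT went from -0.18 in the lowest class to 0.21 in the highest. Against empty vector, the EVI1-WT medians ran from 0.07 to -0.08 and the EVI1+18 medians from -0.11 to 0.12, so both EVI1 libraries departed from the empty vector library in opposite directions. Of the 1014 genes of highest GC content, 84 were past 1.5-fold in the higher direction and 0 in the lower. Ratios were therefore also computed after subtracting the median of a gene's GC class, an alternative chosen after the data were seen. On that scale 91 higher and 21 lower genes were past 2-fold, and 302 and 72 past 1.5-fold. Of the 99 higher genes, 80 stayed past 2-fold, as did 19 of the 20 lower genes with a GC value. The MECOM ratio was 1.80 on that scale. The cause of the GC trend was not tested.

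**Figure D2:**
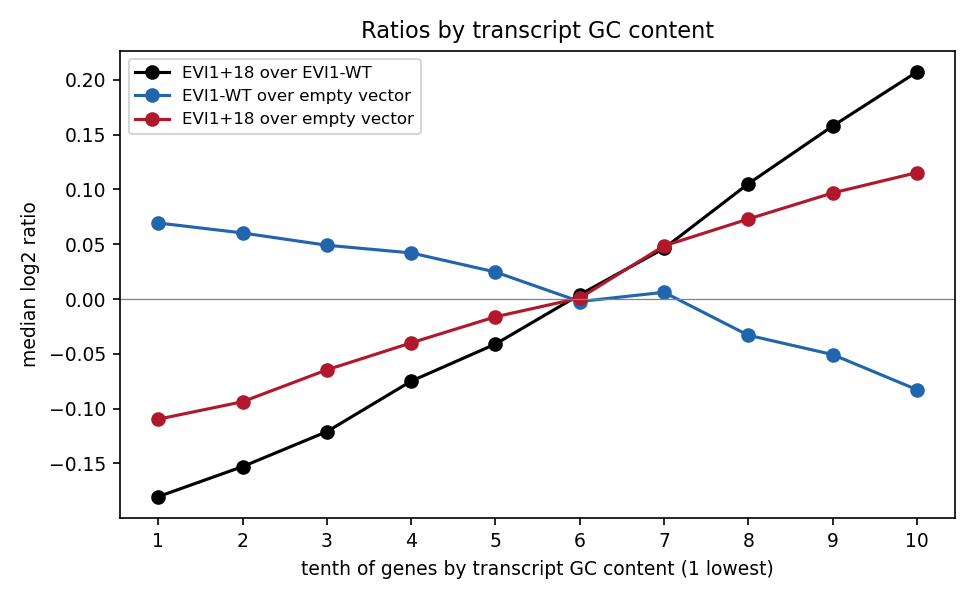
Median log2 ratio (vertical axis) of the genes in each of 10 classes of transcript GC content (horizontal axis, lowest to highest) for the 3 pairs of libraries. The EVI1+18 over EVI1-WT line climbs from -0.18 to 0.21, while the EVI1-WT over empty vector line descends from 0.07 to -0.08.

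The empty vector library shows which EVI1 library holds the unusual level, with the limit that it is also a single library. Of the 99 genes at least 2-fold higher with EVI1+18, the empty vector level was within 1.5-fold of EVI1+18 alone for 58 and within 1.5-fold of EVI1-WT alone for 13. It was within that distance of both for 2 genes and of neither for 26. Among those 26 genes, it lay above both EVI1 libraries for 16, below both for 4 and between them for 6. Of the 22 lower genes, 7 had an empty vector level near EVI1+18, 9 near EVI1-WT and 6 near neither. These 22 include the 7 lower genes that share reads with a partner. Among genes past the filter, the higher genes were thus more often low in the EVI1-WT library than high in the EVI1+18 library. The lower genes were divided between the possibilities. The filter is a mean over the 3 libraries. A gene high in empty vector and EVI1+18 therefore passes more easily than a gene high in EVI1+18 alone. How far this shaped the division was not tested. Both comparisons against empty vector share that library with each other, and each shares an EVI1 library with the comparison described here.

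**Figure D3:**
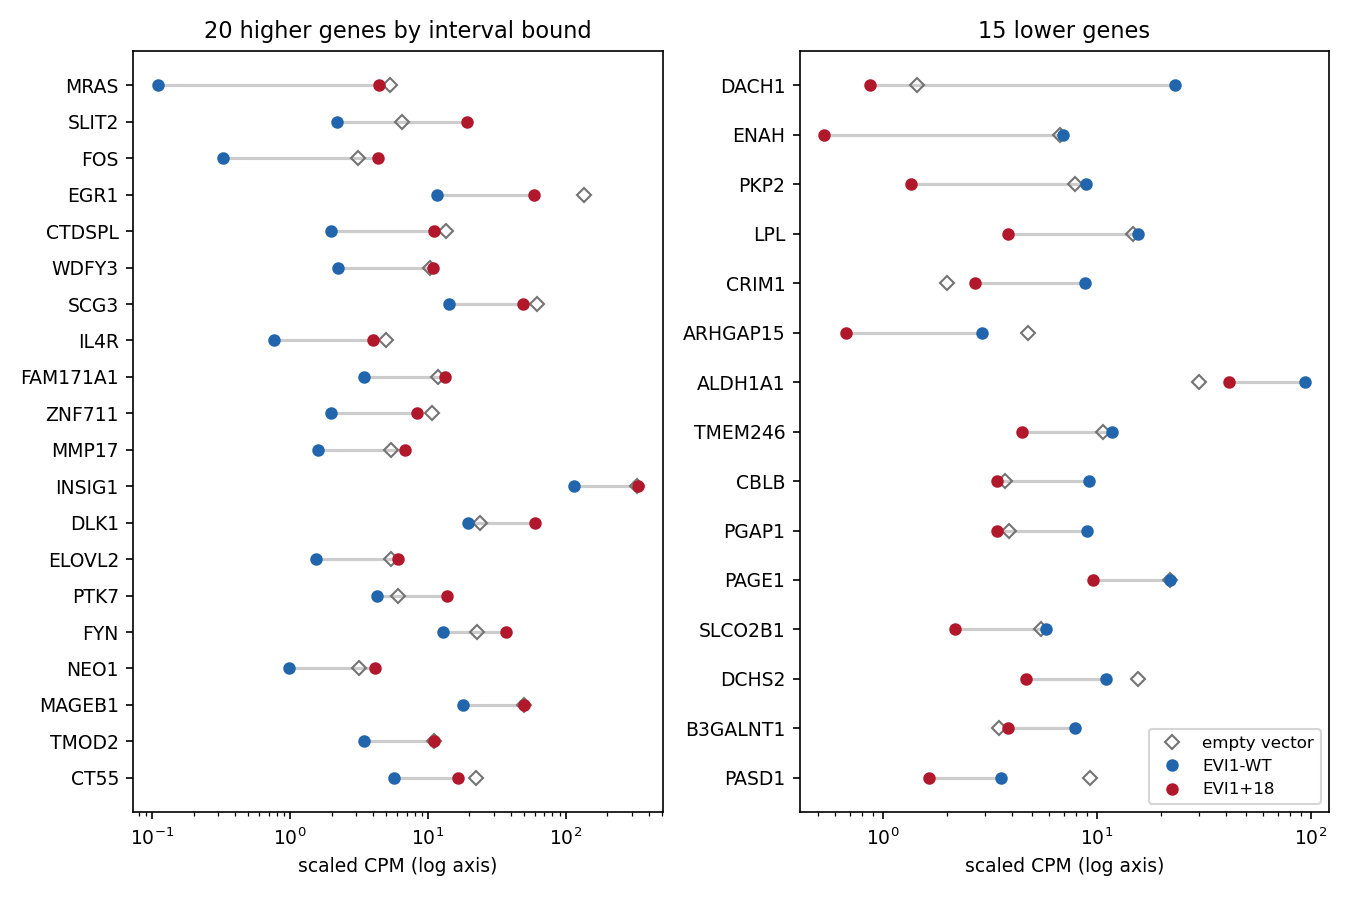
Scaled CPM (horizontal log axis) in the empty vector (open diamonds), EVI1-WT (blue) and EVI1+18 (red) libraries for 20 genes higher and 15 genes lower with EVI1+18, without genes that share reads with partners. For INSIG1, WDFY3, MAGEB1 and TMOD2 the diamond lies on the EVI1+18 point, and for ENAH, PKP2, LPL and PAGE1 it lies on the EVI1-WT point.

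Immediate-early genes, which are switched on within minutes by growth factor signals through the ERK cascade, held the highest-ranked transcription factors among the higher genes. EGR1, a zinc finger activator of that class, stood at 135 CPM (empty vector), 11.7 CPM (EVI1-WT) and 58.4 CPM (EVI1+18). The ratio of EVI1+18 to EVI1-WT was 5.01 (4.33 to 5.82), and both EVI1 libraries lay below the empty vector, by 11.6-fold with EVI1-WT and 2.31-fold with EVI1+18. FOS, a subunit of AP-1, had 56, 6 and 90 counts in the same order. Its ratio was 13.2 (5.85 to 37.0), so the EVI1-WT library alone was low. The AP-1 partner JUND stood at 73.8, 46.7 and 79.3 CPM, a ratio of 1.70 (1.56 to 1.85) that was 1.47 after centring by GC content.

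Other immediate-early factors differed less. Of 28 genes on the list 17 passed the filter, 16 were above a ratio of 1 and 3 were at least 1.5-fold higher, with a median log2 ratio of 0.25 where that of all genes was -0.006. Over all 10406 genes, 5088 were above a ratio of 1 and 2409 had an interval above 1, which is the background for such counts here and below. IER2 was at 1.48 (1.38 to 1.58), ATF3, a stress-induced repressor, at 1.47 (1.24 to 1.75) and JUNB at 1.40 (1.28 to 1.53). JUN was at 1.07 and MYC at 1.12. NR4A2, an orphan nuclear receptor, was the 1 member below 1, at 0.937 (0.658 to 1.34). After centring by GC content the median was 0.20.

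The serum response element, bound by SRF, is the best known route from ERK signalling to these genes, and its core is called the CArG box. Among 8581 of the 10406 genes whose RefSeq promoters (GRCh38.p14) could be matched by symbol, 0.944% held a CArG box on either strand within 250 bases before the start site. It was found in 2 of the 76 matched genes that were at least 2-fold higher, EGR1 and PDGFA, and in 0 of the 15 matched lower genes. The 140 bases before each start site are shown because EGR1 holds 2 such boxes close together; capitals mark the boxes. The EGR1 stretch is chr5:138465339-138465478 on the plus strand, and its boxes begin 105 and 83 bases before the start site. The PDGFA stretch is chr7:520227-520366 on the minus strand, and its box begins 120 bases before the start site. A match is a description of letters and not a measured site, and the deposited tables themselves use build hg19.
EGR1: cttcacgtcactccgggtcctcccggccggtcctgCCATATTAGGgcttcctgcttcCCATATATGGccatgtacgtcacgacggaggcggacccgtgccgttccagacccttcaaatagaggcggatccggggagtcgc
PDGFA: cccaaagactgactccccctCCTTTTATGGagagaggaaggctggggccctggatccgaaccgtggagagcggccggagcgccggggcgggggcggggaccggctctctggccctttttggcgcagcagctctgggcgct

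PDGFA, a chain of the growth factor PDGF, had 112, 36 and 138 counts in the empty vector, EVI1-WT and EVI1+18 libraries, a ratio of 3.38 (2.33 to 5.03). Again the EVI1-WT library alone was low. The stretch searched before the FOS start site held no CArG box. Bases further upstream were not searched, so a box there would have been missed and its absence from FOS was not tested.

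Components and outputs of the RAS-ERK pathway did not share one direction. MRAS, a RAS-related GTPase that assembles a phosphatase complex acting on RAF kinases, had 96, 2 and 91 counts, so that the EVI1-WT library was nearly without it. The ratio of 40.2 (10.8 to 337) rests on those 2 counts. Of the other 21 members of the cascade none was past 1.5-fold, against a background of 3.57% of genes in the higher direction, and the median of the list of 22 was -0.12. RIT1 stood at 0.734 (0.656 to 0.820) and the kinase gene MAPK3 at 1.21 (1.10 to 1.33). After centring by GC content that median was -0.03.

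Among ERK feedback and ERK-driven genes 12 of 18 passed the filter. CCND1, encoding cyclin D1, had 265, 15 and 48 counts, a ratio of 2.82 (1.55 to 5.43), and was thus low in both EVI1 libraries. The ERK phosphatase gene DUSP5 was at 1.97 (1.33 to 2.98), while DUSP10, whose product acts mainly on the stress kinases, was 1.83-fold lower (1.17 to 2.90). SPRY4 and ETV4 were at 1.01 and 0.988. The list median was -0.06.

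Lipid synthesis genes were mostly higher with EVI1+18, and the EVI1-WT library was the low one. Sterol and fatty acid enzymes are known to be transcribed under the SREBP factors, which are held in the endoplasmic reticulum by INSIG proteins when sterols are plentiful. INSIG1, itself an SREBP target, was among the most abundant of the 99 higher genes, at 327 CPM (empty vector), 114 CPM (EVI1-WT) and 336 CPM (EVI1+18). It was 2.96-fold higher with EVI1+18 (2.82 to 3.11) and within 1.03-fold of the empty vector. INSIG2, the paralog not driven in the same way, was at 1.02 (0.828 to 1.26).

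All 20 cholesterol synthesis enzymes passed the filter. Ratios were above 1 for 18, with intervals above 1 for 16, and 6 were at least 1.5-fold higher and 0 lower. The sterol demethylation enzyme gene MSMO1 led at 1.84 (1.67 to 2.02), with 56.9, 35.5 and 65.2 CPM. MVK and MVD, of the mevalonate branch, were at 1.74 (1.51 to 2.01) and 1.62 (1.52 to 1.74). DHCR7, the last reductase of the pathway, was at 1.60 (1.52 to 1.68), HMGCS1 at 1.53 (1.45 to 1.61) and LSS at 1.503 (1.42 to 1.59). SC5D and PMVK were at 0.985 and 0.998. Summed over the list, the levels were 3210 CPM (empty vector), 1962 CPM (EVI1-WT) and 2693 CPM (EVI1+18). The EVI1+18 library thus stood between the others, and the median log2 ratio of 0.45 was 0.48 after centring by GC content. On that scale MSMO1 was at 2.08 and HMGCS1 at 1.70, while MVD, DHCR7 and LSS were below 1.5-fold at 1.41, 1.49 and 1.35. In TPM, HMGCS1 and LSS were just below it at 1.498 and 1.48.

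Summed over the list, fatty acid synthesis and desaturation genes followed the same order of libraries, at 5220, 3138 and 4535 CPM. Single genes did not all follow it, and ACSL1 stood at 18.5, 9.37 and 19.5 CPM. Of 15 genes 13 passed the filter, 12 were above 1 and 4 at least 1.5-fold higher, with a median of 0.33. FASN, the fatty acid synthase gene, had 23679, 14882 and 29005 counts, a ratio of 1.72 (1.69 to 1.75) that was 1.49 after centring by GC content. The desaturase gene FADS1 stood at 758, 271 and 508 CPM, a ratio of 1.87 (1.81 to 1.94). ACSL1, which activates long-chain fatty acids, was at 2.08 (1.74 to 2.50) and ACSS2, which makes acetyl-CoA from acetate, at 1.62 (1.502 to 1.74). ME1, a source of NADPH, was the 1 gene below 1, at 0.895 (0.806 to 0.994). Outside the list, ELOVL2, an elongase of polyunsaturated fatty acids, had 98, 28 and 126 counts and a ratio of 3.97 (2.62 to 6.22).

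**Figure D4:**
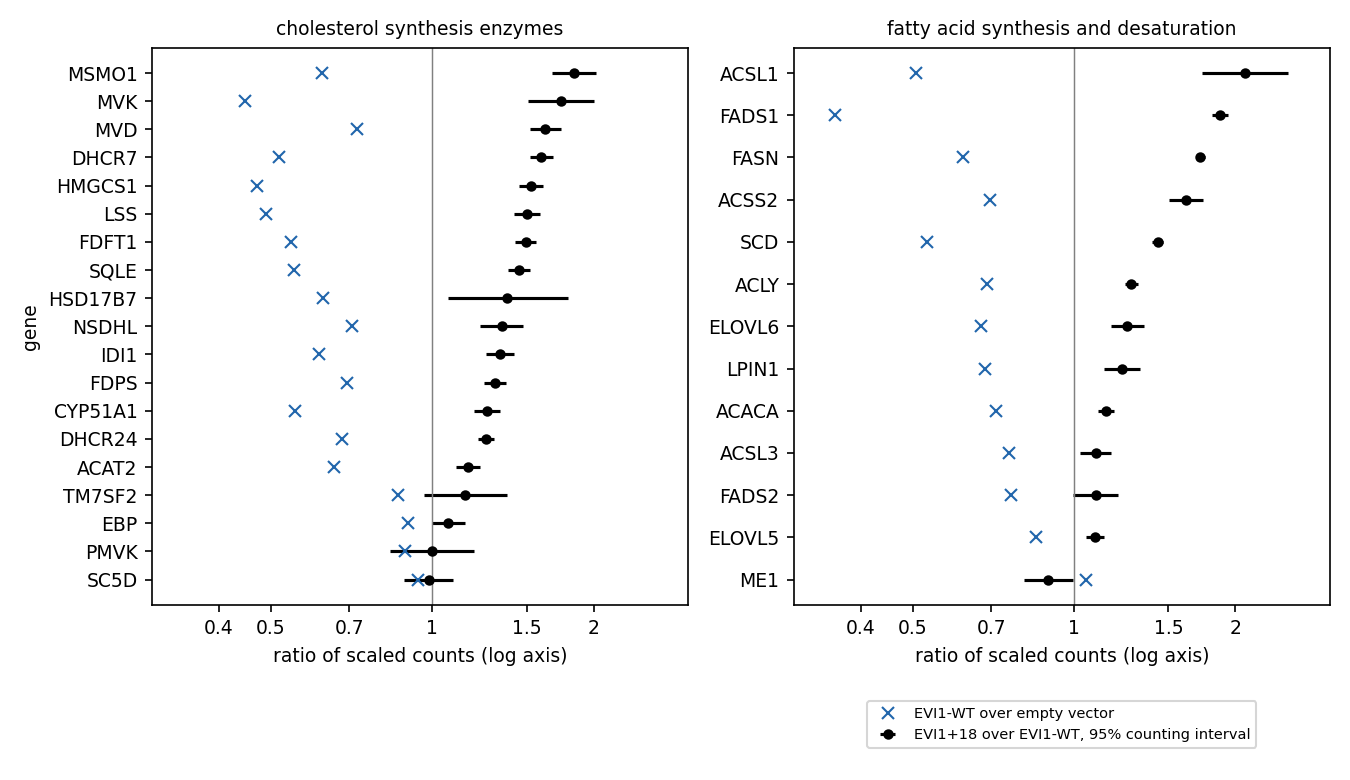
Ratio of EVI1+18 over EVI1-WT (black points with 95% counting intervals, log axis) for 19 cholesterol synthesis enzymes and 13 fatty acid genes, with the ratio of EVI1-WT over empty vector as crosses. The black points lie above 1 for 17 and 12 genes, and most crosses lie below 1; the pairs share the EVI1-WT library.

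Genes of sterol sensing, uptake and export numbered 15 past the filter, of which 14 were above 1 and 4 at least 1.5-fold higher. NPC2, a lysosomal cholesterol carrier, was at 1.60 (1.26 to 2.03), STARD4 at 1.49 (1.35 to 1.63), SREBF1 at 1.38 (1.29 to 1.48) and SREBF2 at 1.24. The median of 0.31 was 0.21 after centring by GC content. Neither sterol response sequence searched, ATCACCCCA or CACCCCAC on either strand, occurred in the matched promoters of 15 cholesterol enzymes, and these letters occur in 0.0932% and 2.13% of all matched promoters.

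Of 12 genes of lipoprotein lipase, lipoprotein receptors and their partners, 9 were above 1, with a median of 0.24 that was 0.09 after centring by GC content. The 1 member past 2-fold in the lower direction was LPL. LPL, the lipoprotein lipase gene, stood at 14.8 CPM (empty vector), 15.6 CPM (EVI1-WT) and 3.87 CPM (EVI1+18). The EVI1+18 level was 4.04-fold below the EVI1-WT level (3.14 to 5.24), and the EVI1+18 library alone was low. In the same list DAB2, an endocytic adaptor, had 170, 16 and 42 counts (ratio 2.32, 1.28 to 4.41), and the apolipoprotein gene APOC1 was at 1.67 (1.49 to 1.87). LRP6 was at 0.810 (0.744 to 0.881).

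Hypoxia response genes included members whose level was lowest with empty vector and highest with EVI1+18. DDIT4, an inhibitor of mTOR complex signalling that is induced by low oxygen and stress, had 1954, 4211 and 9758 counts. Its EVI1+18 over EVI1-WT ratio was 2.05 (1.97 to 2.12), which was 1.90 after centring by GC content. It was 2.13-fold above empty vector with EVI1-WT and 4.36-fold with EVI1+18. ANKRD37 had 15, 57 and 129 counts in the same order. VEGFA, the vascular growth factor gene, stood at 70.7, 100 and 157 CPM, a ratio of 1.57 (1.48 to 1.66) that was 1.46 after centring by GC content. The host gene of the hypoxia-linked miR-210, MIR210HG, had 11, 60 and 137 counts and a ratio of 2.02 (1.48 to 2.78), which was 1.87 after centring by GC content and 1.98 in TPM. BHLHE40, a circadian and hypoxia-responsive repressor, was 2.20-fold higher (2.04 to 2.37), but its EVI1-WT level of 52.6 CPM lay below the 72.3 CPM of the empty vector.

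Of the 18 hypoxia genes outside glycolysis that passed the filter, 15 were above 1 and 4 at least 1.5-fold higher, with a median of 0.20 that became 0.26 after centring by GC content. BNIP3 and EGLN1 were near equality at 1.07 and 1.11, and HIF1A, the gene of the oxygen-regulated factor itself, was at 0.805 (0.729 to 0.889). All 20 glycolysis genes passed and 19 were above 1, with ALDOC at 1.57 (1.48 to 1.68) and the glucose transporter gene SLC2A3 at 1.57 (1.49 to 1.66). The glycolysis median of 0.23 was 0.14 after centring by GC content, and ALDOC was at 1.46.

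The core letters of the hypoxia response element, ACGTG on either strand, occurred within 250 bases before the start site in 24.3% of the 8581 matched promoters and in 7 of the 14 matched hypoxia genes. Among genes at least 2-fold higher they occurred in 16 of 76, or 21.1%. The promoters of DDIT4, ANKRD37 and BHLHE40, the members with the highest ratios, are shown with each occurrence in capitals. They lie at chr10:72273674-72273923, chr4:185396591-185396840 and chr3:4979187-4979436 of GRCh38.p14, all on the plus strand.
DDIT4: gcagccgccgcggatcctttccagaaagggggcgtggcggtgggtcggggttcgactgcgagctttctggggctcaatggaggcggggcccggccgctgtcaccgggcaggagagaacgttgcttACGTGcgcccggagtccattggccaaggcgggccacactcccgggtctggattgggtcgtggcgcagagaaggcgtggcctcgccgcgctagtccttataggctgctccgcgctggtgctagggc
ANKRD37: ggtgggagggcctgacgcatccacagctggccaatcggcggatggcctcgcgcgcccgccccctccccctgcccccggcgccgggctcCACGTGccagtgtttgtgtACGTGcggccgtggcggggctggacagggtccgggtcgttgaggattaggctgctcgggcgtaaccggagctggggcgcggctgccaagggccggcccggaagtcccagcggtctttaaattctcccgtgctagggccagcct
BHLHE40: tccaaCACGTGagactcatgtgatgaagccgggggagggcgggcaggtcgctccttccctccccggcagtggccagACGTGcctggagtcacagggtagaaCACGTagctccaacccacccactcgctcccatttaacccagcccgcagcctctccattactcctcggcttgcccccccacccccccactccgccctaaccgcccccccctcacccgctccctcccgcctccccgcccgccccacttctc

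Receptors, ligands and signalling adaptors formed a further part of the higher genes. SLIT2, a secreted ligand of ROBO receptors in axon guidance, had 118, 40 and 394 counts, a ratio of 8.69 (6.27 to 12.4). It was below empty vector with EVI1-WT and 2.91-fold above it with EVI1+18. Its receptor gene ROBO2 was at 0.911 (0.793 to 1.05). IL4R, a chain of the interleukin-4 receptor, had 90, 14 and 83 counts and a ratio of 5.23 (2.95 to 9.98). NEO1, the netrin and RGM receptor neogenin, had 57, 18 and 85 counts and a ratio of 4.17 (2.49 to 7.37). In both receptor genes the EVI1-WT library alone was low.

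DLK1, a paternally expressed transmembrane protein that acts on Notch signalling, and PTK7, a pseudokinase of planar polarity signalling, were high in the EVI1+18 library alone. DLK1 stood at 24.0, 19.5 and 59.3 CPM, a ratio of 3.04 (2.70 to 3.43). PTK7 stood at 6.10, 4.27 and 13.7 CPM, a ratio of 3.21 (2.49 to 4.18). FYN, a SRC family kinase, stood at 22.6, 12.8 and 36.9 CPM, a ratio of 2.88 (2.49 to 3.35), with the empty vector between the EVI1 libraries. NOTUM, a secreted enzyme that inactivates WNT proteins, had 73, 36 and 138 counts and a ratio of 3.38 (2.33 to 5.03). FZD3, a WNT receptor, had 19, 47 and 154 counts and a ratio of 2.89 (2.07 to 4.10).

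IGFBP4 and IGF1, named after their values were seen, were low in both EVI1 libraries and lower with EVI1-WT. IGFBP4, a binding protein of insulin-like growth factors, stood at 60.3, 14.5 and 38.7 CPM, a ratio of 2.67 (2.32 to 3.08). IGF1 had 260, 61 and 162 counts and a ratio of 2.34 (1.74 to 3.20). LIFR, a cytokine receptor of the interleukin-6 family, was low in the EVI1-WT library alone, at 22.4, 6.52 and 16.0 CPM, a ratio of 2.45 (1.98 to 3.04).

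Several of the highest-ranked genes were low in the EVI1-WT library alone and have no common pathway in the lists used. The phosphatase gene CTDSPL stood at 13.5, 1.97 and 11.02 CPM, a ratio of 5.59 (3.92 to 8.18). WDFY3, which encodes an autophagy scaffold, had 186, 41 and 227 counts and a ratio of 4.89 (3.49 to 6.99). SCG3, a secretory granule protein, stood at 62.1, 14.1 and 49.0 CPM, a ratio of 3.47 (3.02 to 3.99).

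The same order held for FAM171A1 at 3.85 (2.92 to 5.15), the zinc finger gene ZNF711 at 4.19 (2.91 to 6.18) and the membrane-bound metalloprotease gene MMP17 at 4.29 (2.86 to 6.64). It also held for TMOD2, a tropomodulin that caps actin filaments, at 3.19 (2.41 to 4.29), and for the cancer-testis genes MAGEB1 at 2.74 (2.41 to 3.11) and CT55 at 2.94 (2.35 to 3.70). No list of cancer-testis genes was used. Others past 2-fold were DDX53, at 2.06 (1.44 to 2.99), and PAGE1 and PASD1 in the lower direction.

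Other genes past 2-fold in the higher direction fall into a few known functions, named here from the full set after their values were seen. Signalling and cytoskeletal genes of blood cells formed one such group. VAV1, a GTPase exchange factor of blood cells, stood at 12.0 CPM (empty vector), 8.76 CPM (EVI1-WT) and 17.84 CPM (EVI1+18), a ratio of 2.04 (1.69 to 2.47), and the empty vector level was within 1.5-fold of both. VAV1 was below 2-fold after centring by GC content, at 1.89, and in TPM, at 1.98. PREX1, an exchange factor for RAC, had 176, 38 and 127 counts and a ratio of 2.95 (2.04 to 4.36). COTL1, which binds actin filaments, stood at 61.2, 14.1 and 33.3 CPM, a ratio of 2.36 (2.04 to 2.74). The tetraspanin gene CD53 was at 2.19 (1.92 to 2.52), with 431, 300 and 746 counts. Its empty vector level lay between the EVI1 libraries, 1.51-fold below EVI1+18 and 1.45-fold above EVI1-WT.

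Secretion and vesicle genes gave a further group. SYTL4, which tethers secretory granules, had 61, 96 and 311 counts, a ratio of 2.86 (2.27 to 3.63), and was 4.45-fold above empty vector with EVI1+18. UNC13A, a priming factor of synaptic vesicles, had 148, 16 and 71 counts, a ratio of 3.92 (2.25 to 7.22), so both EVI1 libraries were below empty vector. RAB6B, a Golgi GTPase, stood at 14.1, 6.41 and 15.2 CPM, a ratio of 2.38 (1.92 to 2.96).

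Secreted and surface proteins gave another group. GDF15, a stress-induced cytokine of the TGF-beta family, had 559, 258 and 619 counts, a ratio of 2.12 (1.83 to 2.46) that was 1.83 after centring by GC content. GAS6, the ligand of the TAM receptor kinases, was at 2.39 (1.79 to 3.23) and PVR, the poliovirus receptor and nectin-like adhesion gene, at 2.86 (2.09 to 3.97). In all of GDF15, GAS6 and PVR the EVI1-WT library alone was low. FUT1, which makes the H blood group antigen, had 142, 100 and 305 counts, a ratio of 2.69 (2.14 to 3.41), and PRG2, the eosinophil major basic protein gene, had 36, 38 and 131 counts, a ratio of 3.04 (2.11 to 4.49). In FUT1 and PRG2 the EVI1+18 library alone was high.

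The translation factor gene EEF1A2 stood at 23.5, 9.53 and 25.3 CPM, a ratio of 2.66 (2.23 to 3.17), and the BCL2 family gene BOK had 96, 26 and 97 counts, a ratio of 3.29 (2.12 to 5.29). DUSP9, an ERK phosphatase gene outside the ERK list, had 133, 55 and 127 counts, a ratio of 2.04 (1.47 to 2.85) that was 1.77 after centring by GC content. The receptor gene APLNR, with 90, 15 and 45 counts, and GDA, the guanine deaminase gene, with 229, 44 and 100 counts, were below empty vector in both EVI1 libraries and at ratios of 2.65 (1.45 to 5.11) and 2.01 (1.39 to 2.93).

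Among lower genes that do not share reads with a partner, DACH1 ranked highest by interval bound, and its EVI1-WT library was the high one. DACH1, a transcriptional cofactor of the retinal determination network, had 26 counts with empty vector, 425 with EVI1-WT and 18 with EVI1+18. The EVI1+18 level was 26.8-fold below that of EVI1-WT (16.7 to 45.6), which was 16.2-fold above empty vector. Its partners SIX4 and EYA3 were at 0.900 and 0.909, and SIX5 at 1.38 (1.14 to 1.69). CRIM1, a membrane protein that binds BMP ligands, had 36, 161 and 56 counts and was 3.26-fold lower (2.39 to 4.50). ALDH1A1, which makes retinoic acid and is used as a marker of stem-like cells, stood at 29.9, 93.8 and 41.4 CPM and was 2.26-fold lower (2.08 to 2.46). CBLB, a ubiquitin ligase that limits receptor signalling, PGAP1 and the glycosyltransferase gene B3GALNT1 shared that order of libraries and were 2.67-fold (2.01 to 3.57), 2.63-fold (1.98 to 3.53) and 2.04-fold (1.54 to 2.72) lower. B3GALNT1 was 1.83-fold lower after centring by GC content.

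In a second set of lower genes the EVI1+18 library alone was low, and it included genes of cell adhesion and the cytoskeleton. ENAH, which lengthens actin filaments at the leading edge, had 121, 127 and 11 counts and was 13.1-fold lower (7.07 to 26.9). Its relatives EVL and VASP were not, at ratios of 1.37 (1.17 to 1.59) and 1.12 (1.06 to 1.17). PKP2, a desmosomal plaque protein, had 143, 163 and 28 counts and was 6.60-fold lower (4.40 to 10.2), while PKP3 and PKP4 were at 1.09 and 0.926 and DSG2 at 0.801 (0.763 to 0.841).

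SLCO2B1, an organic anion transporter gene, had 99, 106 and 45 counts and was 2.67-fold lower (1.87 to 3.87). TMEM246 was 2.62-fold lower (2.04 to 3.38), DCHS2, a large cadherin, 2.36-fold (1.84 to 3.04) and PAGE1 2.28-fold (1.92 to 2.72). ARHGAP15, a RAC GTPase-activating protein gene, had 86, 53 and 14 counts and was 4.29-fold lower (2.35 to 8.37). The cancer-testis gene PASD1 had 167, 65 and 34 counts and was 2.17-fold lower (1.41 to 3.38). Both of the last genes were below empty vector in the EVI1-WT library as well.

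Genes reported in the literature as EVI1 targets did not share one direction. Of 28 listed, 15 passed the filter, 10 were above 1, 4 past 1.5-fold upwards and 1 past 1.5-fold downwards. The median log2 ratio was 0.11 and 0.01 after centring by GC content. Besides FOS and ALDH1A1, CDKN1A, the cell cycle inhibitor p21, was at 2.65 (1.59 to 4.57), EVI2B at 1.90 (1.29 to 2.86) and SPI1, the myeloid master factor PU.1, at 1.54 (1.36 to 1.73). After centring by GC content SPI1 was at 1.33 and no longer past 1.5-fold. GATA2 was at 1.06. None of 17 EVI1 corepressors and chromatin partners was past 1.5-fold. Over all genes described 3.57% were past 1.5-fold upwards and 0.846% downwards, so a count of 0 among so few genes says little. CTBP1, a corepressor that binds EVI1 directly, was at 1.09 (1.02 to 1.16), and the extremes were DNMT3A at 1.15 and KAT2B at 0.799. GATAAG, part of the sequence bound by the first zinc finger group, occurred in 1 of 76 higher and 1 of 15 lower promoters and in 3.25% of all. GACAAGATA, also searched for the first group, occurred in none of the higher or lower promoters and in 0.0233% of all. It is so rare that its absence among these few promoters says little. GAAGATGAG, bound by the second group, occurred in 1 of 76 and 0 of 15, and in 0.175% of all. Of the other sequences searched, the GATA sequence AGATAA occurred in 2 of 76 higher and 3 of 15 lower promoters and in 4.10% of all, and overlaps GATAAG in part. The AP-1 sequence TGACTCA occurred in 2 of 76 and 0 of 15, and in 2.33% of all. The cyclic AMP response sequence TGACGTCA occurred in 0 of 76 and 0 of 15, and in 3.20% of all. All were searched on both strands.

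Blood lineage genes showed small differences with a few exceptions. Myeloid genes that passed the filter were mostly above 1. Of 25 granulocyte and monocyte genes 8 passed the filter and 7 were above 1, with a median of 0.34 and the Fc receptor gene FCGR2A at 1.87 (1.71 to 2.04), while CD68 was at 0.749 (0.679 to 0.827). CSF1R and ELANE were at 0 in all libraries. Among erythroid and stem cell factors 16 of 20 passed and none was past 1.5-fold, with TAL1 at 0.896 and KLF1 at 0.975. The share over all genes was 3.57% upwards and 0.846% downwards, so 0 of 16 is near the background. HBE1, the embryonic globin gene, stood at 1821, 3525 and 1864 CPM and was 1.89-fold lower with EVI1+18 (1.87 to 1.92), so the EVI1-WT library alone was high. HBD was at 1.80 (1.41 to 2.31). The fetal globin genes HBG1 and HBG2 are near-identical and their sum was at 1.07 (1.07 to 1.08).

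Red cell membrane and heme genes had medians of -0.13 and -0.07. DMTN, the actin-bundling protein dematin, was 1.58-fold lower (1.42 to 1.75) with 29.5, 47.1 and 29.8 CPM, and FECH, the last heme enzyme, was at 0.775 (0.738 to 0.814). Of 20 megakaryocyte and platelet genes only 4 passed the filter, 1 above a ratio of 1 and 3 below, with a median of -0.12. The 1 above was GP1BB, at 2.09 (1.72 to 2.57), or 1.81 after centring by GC content.

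Cell cycle genes were mostly close between the libraries, as were most genes described. Of 18 G1 cyclins, kinases and inhibitors 10 were above 1 and 3 at least 1.5-fold higher, namely CCND1, CDKN1A and CDKN1C, with a median log2 ratio of 0.07. None of 20 DNA replication genes and none of 20 mitosis genes was past 1.5-fold, with medians of -0.04 and -0.14, and the latter became -0.06 after centring by GC content. The share over all genes was 3.57% upwards and 0.846% downwards, so 0 of 20 is near the background. MCM7 was at 1.12 (1.10 to 1.15), TOP2A at 0.861 and KIF11 at 0.822 (0.773 to 0.873). CDKN1C, the inhibitor p57, had 181, 240 and 486 counts, a ratio of 1.79 (1.53 to 2.09). Replication-dependent histone genes were above 1 in 15 of 15 cases and at least 1.5-fold higher in 6, with a median of 0.53 that became 0.46 after centring by GC content. HIST1H2BG had 78, 25 and 71 counts, a ratio of 2.51 (1.57 to 4.13), and HIST1H2BC was at 1.84 (1.40 to 2.44). Summed over the list, histone levels were 1158, 595 and 853 CPM, lowest with EVI1-WT. These transcripts mostly lack a poly(A) tail, and how far the libraries captured them was not tested.

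Each of the stress and immune lists had 0 or 1 member past 1.5-fold. Over all genes described 3.57% were past 1.5-fold upwards and 0.846% downwards, so such counts in lists this small do not set them apart. Among genes that respond to unfolded proteins or amino acid shortage, 19 of 23 were above 1 and 1 was past 1.5-fold, with a median of 0.12. That gene was PHGDH, the entry enzyme of serine synthesis, with 484, 478 and 990 counts and a ratio of 1.83 (1.64 to 2.04). Of 6 genes of MHC class I and antigen processing 6 were above 1, with a median of 0.20, and the peptide transporter gene TAP1 was at 1.74 (1.13 to 2.71). Of 11 NF-kB genes 8 were above 1, with a median of 0.16 that was 0.08 after centring by GC content, and the regulator TNFAIP3 was at 1.56 (1.32 to 1.85). Of 7 interferon genes 4 were above 1 and 0 past 1.5-fold, with a median of 0.17 that was 0.05 after centring by GC content. Of 19 TGF-beta and BMP signalling genes 9 were above 1 and 10 below, with a median of -0.02. In that list 2 were past 1.5-fold upwards and 1 downwards. The TGF-beta target ID3 was at 1.64 (1.10 to 2.45). None of 50 cytosolic ribosomal protein genes was past 1.5-fold, and they ranged from 0.976 to 1.17.

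**Figure D5:**
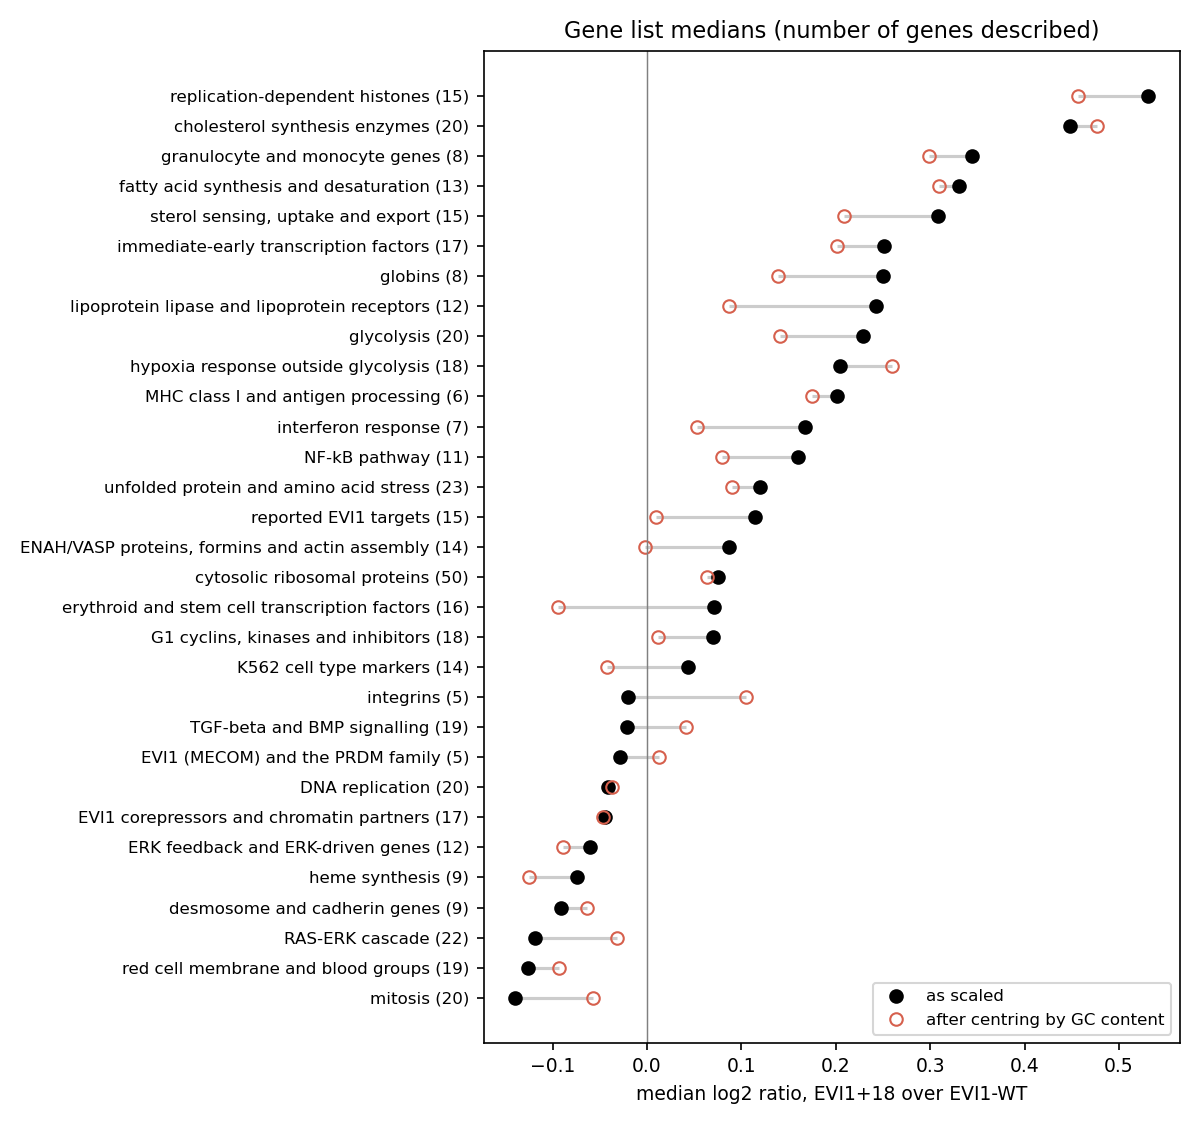
Median log2 ratio of EVI1+18 over EVI1-WT (horizontal axis) for the gene lists shown, each with at least 5 genes past the filter, as scaled (filled) and after centring by GC content (open), with the number of genes in brackets. Histones (0.53) and cholesterol enzymes (0.45) have the highest medians and mitosis genes (-0.14) the lowest, and lists such as erythroid factors cross 0 on centring.

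Some large ratios belong to genes whose reads are shared with a partner. BLOC1S5-TXNDC5, a read-through transcript, had 0 counts with EVI1-WT and 152 with EVI1+18, at least 35.9-fold higher by its lower counting bound (ratio 44.7 with the 0 set to a floor of 3 counts), but the sum with its partner genes was at 0.923 (0.893 to 0.955). TVP23C-CDRT4 was at least 16.1-fold higher by the same bound (ratio 20.3), with a sum at 0.913 (0.721 to 1.16). COMMD3-BMI1, with 181 counts with EVI1-WT and 0 with EVI1+18, had a sum at 0.869 (0.828 to 0.912). SMN2, a near-identical copy of SMN1, had 310 and 13 counts and a sum at 0.865 (0.818 to 0.916). The sums of PHOSPHO2-KLHL23, RBM14-RBM4, RPL21, FAM133DP, SMG1P5 and PMS2P7 lay between 0.862 and 0.993, and that of C8orf44-SGK3 was 0.798. In contrast, the sum for the heat shock gene HSPA6 was at 2.96 (2.06 to 4.32). The sum for CCDC152, which overlaps the selenoprotein P gene SEPP1, was at 3.66 (2.60 to 5.25), and that for AFAP1-AS1 with its sense gene was at 2.27 (2.02 to 2.56). SEPP1 itself, under the filter, had 40, 4 and 85 counts.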

How the data were processed

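RNA libraries of 3 K562 cell pools were sequenced. Per the file headers, the authors deposited for each library a gene table with an expected count, a TPM and an FPKM value and transcript lengths. The deposited expected count, an estimate that shares ambiguous reads between transcripts, was rounded to whole numbers. The deposited TPM served as an alternative, and the FPKM the authors deposited was not used. Reads were converted with bcl2fastq and the build was hg19, per the submitters' processing notes. The sources used here do not give the tools for alignment and counting or the use of strand, so genes that share reads, overlap or lie antisense are uncertain.

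TMM factors for CPM came from edgeR 4.0.16 in R 4.3.3 and lay between 0.990 and 1.01. Ratios and exact intervals were computed with scipy 1.17.1 under Python 3.11.15 and run on simulated counts. Those counts were drawn with counting error alone, so the run checks the calculation and not the spread between cultures. A count of 0 was set to the floor of 3 counts. Intervals cover counting error only, and may be too narrow even for that. Reads that carry no molecular identifier can repeat a molecule, and sharing ambiguous reads between transcripts adds error that the intervals leave out. GC content came from GENCODE transcripts and was found for 97.5% of the described genes.

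The genes named are MECOM, the 30 higher genes and all lower genes by the interval bound nearest to 1, and list members at least 1.5-fold different or, where there was none, the 2 most abundant. Other list members and called genes are named for contrast, chosen after their values were seen. The comparison, its 38 gene lists and the rule were chosen with earlier results of these data known. Some genes under the rule are not reported here, though they are counted.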

Additional observations from a re-analysis of the deposited data

How the results depend on the processing

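Scaling by library total, scaling by DESeq2 1.42.0 size factors, the deposited TPM ratio, centring by GC content and leaving out genes that share reads kept all counts of genes past 2-fold and 1.5-fold within 1.5 times of those reported. Leaving out genes that share reads came closest to that limit, with 15 in place of 22 genes at least 2-fold lower. The filter on counts did not keep the counts within it. With a mean of at least 20 counts, 212 genes were at least 2-fold higher and 51 lower, and 620 and 169 at 1.5-fold. At a minimum mean of 100 the numbers were 51 and 13, and 213 and 50. With no filter they were 1103 and 932, and 1800 and 1537, so that the excess of higher genes was smaller among genes of few counts. An interval bound of at least 2-fold left 45 and 12. The ratio of MECOM lay between 1.70 and 1.80 throughout. Of 158 gene ratios none changed direction under another scaling, TPM or GC centring, and 17 left their counting interval on GC centring. Of 37 list medians, 8 differed by more than 0.1 on GC centring, 14 when the mean replaced the median and 4 with members from a mean of 10 counts. Depth limits mainly the genes of few counts in the EVI1-WT library, such as MRAS and FOS. No paired analysis was possible because each construct has 1 library.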

Other observations

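Genes below the filter held further large differences that rest on few counts. TMPRSS15, the enteropeptidase gene, had 6 counts with empty vector, 63 with EVI1-WT and 0 with EVI1+18. NCAN, a brain proteoglycan gene, had 26, 1 and 114 counts, a ratio of 101 (17.7 to 4008). EFEMP1, an extracellular matrix gene, had 33, 2 and 54 counts, and POF1B had 24, 1 and 31. The keratin gene KRT5 had 2, 0 and 29 counts, the homeobox gene NKX2-2 2, 0 and 22, and FCGRT, the neonatal Fc receptor gene, 2, 0 and 22. In the first of these the EVI1-WT library was high, in NCAN, EFEMP1 and POF1B it was low, and in the others the EVI1+18 library was high. For NCAN the EVI1+18 library was high as well, 3.83-fold above empty vector (2.48 to 6.10). These genes were chosen after their values were seen.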
